A study of Mus musculus with 9 samples.

Results

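The transcriptomes of peptide-activated CD8 T cells of clone R7-II, whose T cell receptor binds the ROP7 peptide with the lowest affinity of 3 clones, were compared with those of R7-I, the clone with the highest affinity. The comparison took the 3 R7-II and the 3 R7-I libraries, 6 of the 9 libraries analysed, and all genes whose TPM, a length-corrected share of all transcripts, exceeded 1 in at least 1 of the 9, which were 11330 of the 24060 genes listed. Both clones come from transnuclear mice, made by transfer of the nucleus of a single CD8 T cell specific for ROP7, a rhoptry protein of Toxoplasma gondii, so each line carries 1 rearranged T cell receptor in its endogenous loci. The lines are kept on a Rag2-proficient, CD90.2+ BALB/c background, and each stands for 1 receptor, so the receptor and any other difference between the lines cannot be told apart. Splenocytes of R7-I and of R7-II mice were held overnight with ROP7 peptide (10 µM) and mouse IL-2 (10 ng/ml), and live CD3+ CD8+ cells that bound the H-2Ld-ROP7 tetramer were sorted. Peptide, IL-2 and the sorted phenotype were the same in both groups, but several cell sorters were used, with no statement of which sorted each library. The age and sex of the animals are likewise not given, and cells kept without peptide were not analysed here. The third clone, R7-III, has an intermediate affinity and the highest self-reactivity by the submitters' order, in which R7-II is the least self-reactive; its 3 libraries entered the same fit, so comparisons of R7-III with R7-I share the R7-I libraries.

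A naive CD8 T cell is kept small and quiescent by factors such as KLF2, FOXO1 and TCF-1, and it recirculates through lymphoid tissue with the receptors CCR7 and S1P receptor 1. Engagement of the T cell receptor by peptide on MHC class I activates calcium, ERK and NF-kappa-B pathways, which induce immediate early genes, IRF4 and MYC. These drive growth, entry into the cell cycle, and the effector program of cytokines and granzymes, while the quiescence program is shut down.

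Libraries of the same clone correlated at 0.992 to 0.997 (Pearson, log2(TPM + 1), across genes), and 13738 to 13904 genes were above 0 TPM in the R7-I libraries and 14245 to 14434 in the R7-II libraries. TPM keeps no read depth, so no counting error can be given. The 9 CD8 T cell markers tested summed to 2335 to 2368 TPM in R7-I and to 3289 to 3309 TPM in R7-II, and 8 of them were higher in R7-II, all but Cd2 (0.46), which passed without R7-II replicate 2 (0.58). Markers of other cells were low but differed between the clones. The 12 B cell markers summed to 9.42 to 17.1 TPM in R7-I and to 38.7 to 79.5 TPM in R7-II, with 9 of 9 tested genes higher. MHC class II genes summed to 33.3 to 51.8 TPM and 116 to 189.6 TPM, with 8 of 8 higher. The 16 listed myeloid markers in the table summed to 68.3 to 77.0 TPM and 109 to 179 TPM, with Cst3 the most abundant and 10 of 13 tested higher, Cd14 at 0 in all R7-I libraries and C1qb at 0 in all R7-II libraries. Erythroid genes went the other way, from 45.2 to 131 TPM in R7-I to 2.14 to 22.1 TPM in R7-II, with 1 of 6 tested called lower. Of the NK cell markers 1 was tested and did not pass, and Klra8, Klra4, Klra9 and Klrb1b were at 0 in all 6 libraries. Of the 3 genes tested as CD4 T cell markers, Foxp3 and Cd40lg did not pass and Tnfrsf13b, which encodes TACI and is better known from B cells, was higher. Of the stromal and endothelial markers both tested genes were higher (Pecam1 and Epcam, summing with the rest to 5.13 to 6.61 TPM and 30.5 to 40.2 TPM), while Cdh5 and Col3a1 were at 0 in all 6 libraries. The part of these cells in the results was not tested.

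The difference between R7-II and R7-I reached most of the measured genes in small steps and a small number of genes in large ones. With limma on log2(TPM + 1) and Benjamini-Hochberg adjustment over all genes tested, 6358 of 11330 genes (56.1%) passed an adjusted p of 0.01. Of all genes tested 40.6% (4604) were higher in R7-II and 15.5% (1754) were lower, and 5.98% (677) were higher and 1.27% (144) lower by more than 2-fold. Changes of more than 4-fold were found for 90 genes higher and 18 genes lower, and the median absolute log2 fold change was 0.28. The 3 R7-II libraries lay wholly above or below the 3 R7-I libraries for 8071 genes (71.2%). An exact permutation test of 3 against 3 libraries cannot give a p below 0.1, so the calls rest on limma, in which genes share information on their spread. Because these are bulk samples, fewer cells of a type and less RNA per cell cannot be told apart.

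The split between higher and lower calls depended on how libraries were scaled. TPM gave 72.4% of the calls higher and 27.6% lower and a median log2 fold change of 0.17 over all genes. Scaling each library by the median of its ratios to a reference (median-of-ratios), which brings that median to 0.01, gave 47.7% higher and 52.3% lower (26.0% and 28.5% of all genes), and quantile normalization gave 45.9% and 54.1%. Gene lists are therefore described by their counts in TPM with the median-of-ratios counts beside them, and a list's median is to be read against 0.17. Values of log2 fold change are differences of log2(TPM + 1) and understate the change of genes near or below 1 TPM. In the text, "higher" and "lower" are used of R7-II relative to R7-I and of genes that passed the adjusted p of 0.01 from limma, values after ± are standard errors of the log2 fold change with n = 3 libraries per clone, and library values are given in the order of replicates 1, 2 and 3.

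**Figure D1:**
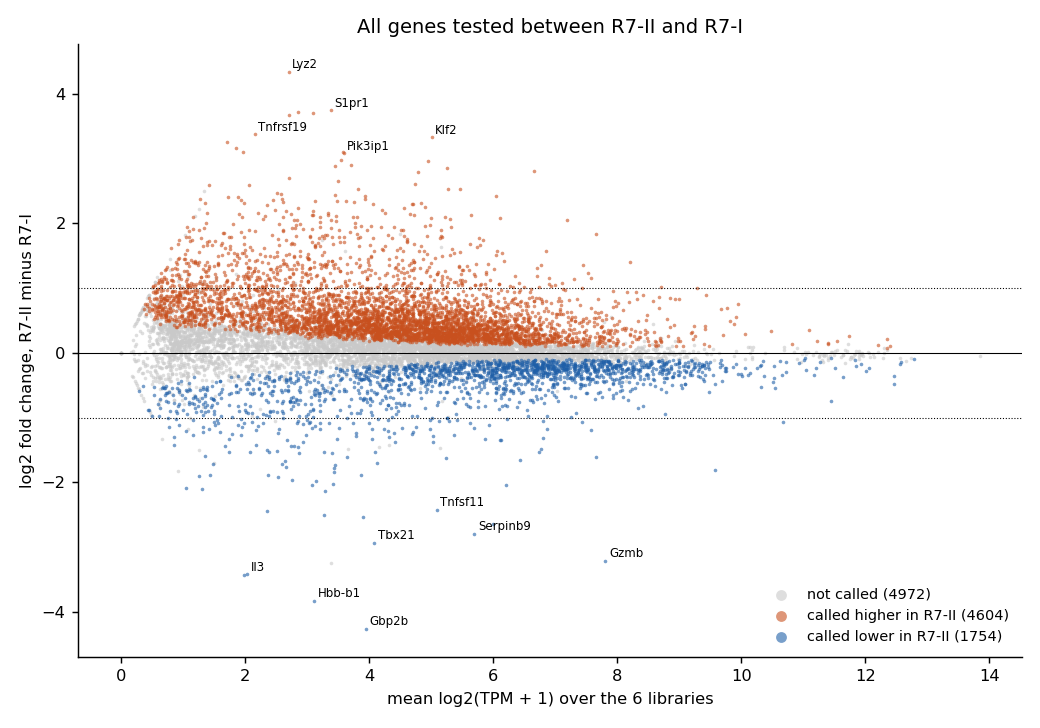
Log2 fold change of R7-II minus R7-I (y axis) against the mean log2(TPM + 1) of the 6 libraries (x axis), 1 point per gene; orange points were called higher (4604), blue points lower (1754), and dotted lines mark a 2-fold change. The cloud sits above 0 except at the highest levels, where blue points prevail.

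The direction of change followed the level of expression. Genes were cut into 5 equal groups by mean TPM. In the lowest group 33.1% were higher and 7.5% lower, and in the middle group, from 14.8 to 33.1 TPM, 50.04% were higher and 10.5% lower. In the highest group, above 76.5 TPM, 25.5% were higher and 34.8% lower, with a median log2 fold change of -0.04 that became -0.22 with median-of-ratios scaling. The genes called lower had a median of 64.2 TPM (quartiles 17 and 159) against 20.4 TPM (7.40 and 45.0) for those called higher and 22.6 TPM for all genes tested. Median transcript length in GENCODE vM21 was 1061 bases for genes called lower, 1466 for genes called higher and 1308 for all genes, with 99.2% of the genes matched. Median GC content of the RefSeq promoters, available for 80.1% of the genes, was 61.3%, 60.7% and 60.7% in the same order.

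**Figure D2:**
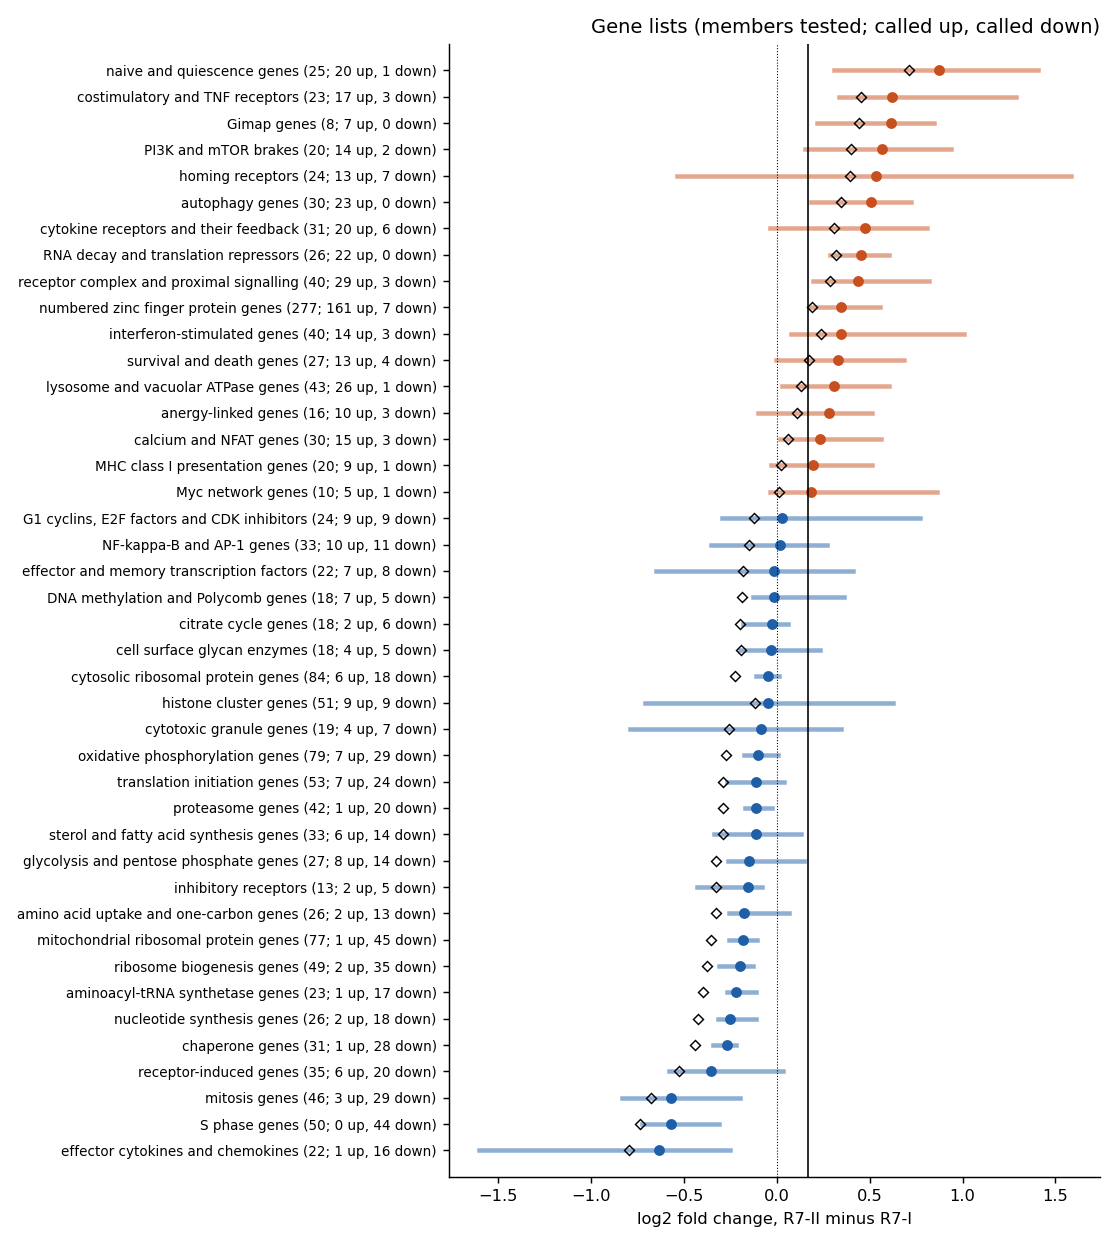
Each row is a gene list, with the number of members tested and the numbers called up and down in brackets; filled circles are the median log2 fold change in TPM (orange above the median of all genes, blue below), bars span the quartiles, open diamonds are the median after median-of-ratios scaling, the solid line is the median of all genes (0.17) and the dotted line is 0. Naive and quiescence genes lie at the top and S phase, mitosis and effector cytokine genes at the bottom.

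The genes with the largest gain in R7-II included S1pr1, Klf2, Rasgrp2 and Pik3ip1, which are known from T cell trafficking, quiescence and signalling. The 12 largest gains among genes whose libraries did not overlap and that averaged 5 TPM or more in either clone were those of Lyz2, S1pr1, Tlr1, Rasgrp2, Cd7, Tnfrsf19, Klf2, Gm6756, Slc6a19, Arl4c, Mturn and Pik3ip1, with log2 fold changes of 4.34 ± 0.37 down to 3.08 ± 0.16. S1pr1, the receptor that lets lymphocytes leave lymphoid organs along a gradient of sphingosine 1-phosphate, was at 1.71, 1.51 and 2.38 TPM in R7-I and at 47.6, 25.3 and 42.6 TPM in R7-II. Klf2, the Kruppel-like factor that maintains S1pr1 transcription in resting T cells, was at 9.52, 8.4 and 9.51 TPM and 119, 79.3 and 108 TPM. For both genes R7-II replicate 2 was the lowest of the 3 R7-II libraries and still lay many fold above R7-I. Rasgrp2 (chromosome 19 from 6398957 to 6415216 of mm10), an exchange factor for the small GTPase Rap1 that is opened by calcium and diacylglycerol, was at 1.61, 1.09 and 1.44 TPM against 38.6, 22.6 and 30.7 TPM. Pik3ip1, a membrane protein that inhibits phosphoinositide 3-kinase, was at 3.08, 2.46 and 3.97 TPM against 41, 26.1 and 36.7 TPM. Cd7, an immunoglobulin superfamily receptor of T and NK cells, was at 0.67, 0.83 and 0.98 TPM against 25.2, 16.3 and 27 TPM.

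Several of these leading genes were close to silent in R7-I. Tnfrsf19, a member of the TNF receptor superfamily, was at 0.51, 0.20 and 0.45 TPM in R7-I and at 13.3, 11.4 and 15.7 TPM in R7-II. Slc6a19, a transporter of neutral amino acids, was at 0.14, 0.23 and 0.23 TPM against 11.3, 5.35 and 15.2 TPM, and Arl4c, a small GTPase of the ARF-like family, at 2.83, 2.74 and 3.75 TPM against 40.7, 26.6 and 36.5 TPM. Mturn was at 0.36, 0.26 and 0.40 TPM against 12.5, 7.14 and 12.8 TPM. Separation of the 3 R7-II from the 3 R7-I libraries was a condition of their selection. In each of these genes R7-II replicate 2 was the lowest R7-II library. Tlr1 (chromosome 5 from 64924680 to 64933600), a Toll-like receptor that pairs with TLR2, was at 1.03, 1.08 and 0.83 TPM against 24.9, 22.8 and 27.6 TPM, and R7-III lay between them at 8.99, 9.87 and 9.35 TPM. Gm6756 was at 0.05, 0 and 0.12 TPM in R7-I and at 8.59, 8.76 and 9.98 TPM in R7-II, but R7-III, at 10.5, 10.7 and 10.3 TPM, was as high as R7-II. Lyz2, lysozyme of myeloid cells, was at 0.25, 0.45 and 0.65 TPM against 28.2, 13.8 and 56.7 TPM, and it is itself 1 of the myeloid markers summed above.

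**Figure D3:**
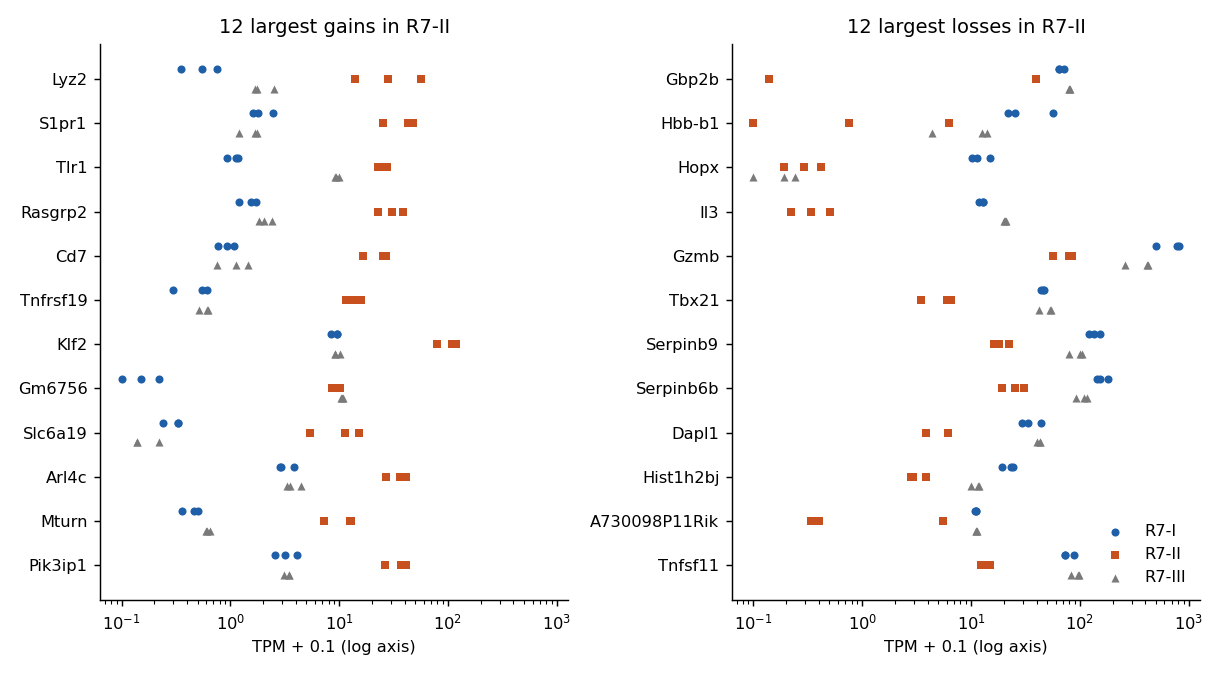
TPM + 0.1 on a log axis for the 12 genes with the largest gain (left) and the 12 with the largest loss (right) in R7-II; each point is a library, blue circles R7-I, orange squares R7-II and grey triangles R7-III. R7-III overlaps or lies near R7-I for genes such as Klf2 and Tbx21, is beside R7-II for Gm6756 and Hopx, and is between them for Tlr1.

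The largest losses in R7-II included the effector genes Gzmb, Tbx21 and Il3. Among genes chosen in the same way these were Gbp2b, Hbb-b1, Hopx, Il3, Gzmb, Tbx21, Serpinb9, Serpinb6b, Dapl1, Hist1h2bj, A730098P11Rik and Tnfsf11, from -4.27 ± 1.09 to -2.42 ± 0.09. Gzmb (chromosome 14 from 56258836 to 56262334), the granule protease that triggers caspases in target cells, was at 813, 785 and 496 TPM in R7-I and at 56.5, 79.6 and 85.2 TPM in R7-II. Serpinb9, the intracellular inhibitor that protects T cells from their own granzyme B, was at 135, 154 and 120.2 TPM against 16.1, 18.1 and 22.1 TPM, and its relative Serpinb6b at 154, 182 and 143 TPM against 19.2, 25.4 and 30.4 TPM. The protease and its inhibitor were thus lower by similar steps, 3.21 and 2.80 on the log2 scale. Tbx21 (chromosome 11 from 97098007 to 97115331), which encodes T-bet, the T-box factor of type 1 effector cells, was at 45.5, 47.1 and 44.2 TPM against 3.38, 6.47 and 5.91 TPM.

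The 2 cytokine genes among them were reduced to different levels. Il3, a growth factor for myeloid progenitors, was at 12.8, 12.7 and 11.7 TPM in R7-I and at 0.24, 0.12 and 0.41 TPM in R7-II, and Tnfsf11, which encodes RANKL, at 73.1, 87.9 and 73.1 TPM against 12.3, 14.2 and 14.8 TPM. Hopx, a homeodomain protein that does not bind DNA, was at 11.2, 14.8 and 10.1 TPM against 0.09, 0.19 and 0.32 TPM, with R7-III at 0.14, 0 and 0.09 TPM. Hopx was therefore high in R7-I alone among the 3 clones, whereas Il3 was at 20.5, 20.1 and 21 TPM in R7-III, above R7-I. Dapl1 was at 33, 44.1 and 29.2 TPM against 3.76, 6.07 and 6.03 TPM. Hbb-b1, adult beta globin, was at 25.4, 56.1 and 21.9 TPM against 0.65, 0 and 6.19 TPM, while the other erythroid genes did not pass. The interferon-induced GTPase gene Gbp2b and A730098P11Rik differed among the R7-II libraries themselves, as described at the end.

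Genes induced by the T cell receptor did not move as 1 block. Of 35 receptor-induced genes, 20 were lower and 6 higher (24 and 3 with median-of-ratios scaling), with a median log2 fold change of -0.36. Irf4, Cd5, Il2ra and Myc were lower by modest steps. Irf4, the factor whose level follows receptor signal strength, was at 515, 486 and 506 TPM in R7-I and at 422, 428 and 369 TPM in R7-II (-0.31 ± 0.05, adjusted p = 2.97e-04 from limma). Cd5, a negative regulator set by receptor signalling, was at 541, 564 and 531 TPM against 354, 423 and 304 TPM (-0.61 ± 0.09), Il2ra, the IL-2 receptor alpha chain, at 392, 364 and 374 TPM against 258, 274 and 246 TPM, and Myc at 659.9, 649.7 and 635 TPM against 541, 522 and 573 TPM (-0.25 ± 0.03). The groups did not overlap for any of these 4 genes, as for 71.2% of all genes tested. Larger losses were those of Irf8, a relative of IRF4, at 173, 194 and 178 TPM against 50.5, 72.4 and 73.1 TPM, of Cd83 at 46, 57 and 47 TPM against 17.5, 22.1 and 20.3 TPM, and of Cd44, the adhesion receptor used as a marker of activated cells, at 169, 177 and 176 TPM against 61.4, 93.8 and 78 TPM.

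Some immediate early genes went the other way in TPM. Egr1, a zinc finger factor induced through ERK, was at 95, 97.8 and 101 TPM in R7-I and at 179, 189 and 165 TPM in R7-II (0.85 ± 0.05, adjusted p = 3.25e-07 from limma). Nr4a1, the orphan receptor Nur77, was at 219, 257 and 260.1 TPM against 348, 285 and 312 TPM (0.36 ± 0.07, adjusted p = 0.00154 from limma), but it no longer passed with median-of-ratios scaling (0.18). Icos was at 39.1, 35.9 and 37 TPM against 75.5, 79.9 and 83.3 TPM, and the remaining higher members were Tnfrsf18 (0.80), Egr3 (0.50) and Nab2 (0.18). With median-of-ratios scaling Egr3 (0.33) and Nab2 (0.00021) no longer passed either. Cd69, the early activation antigen, was at 286, 259.7 and 281 TPM against 276, 290.5 and 293 TPM, overlapping ranges with a log2 fold change of 0.06 ± 0.04 (adjusted p = 0.248 from limma), which turned to -0.12 with median-of-ratios scaling. Receptor-induced genes of both directions were therefore present in the same libraries.

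**Figure D4:**
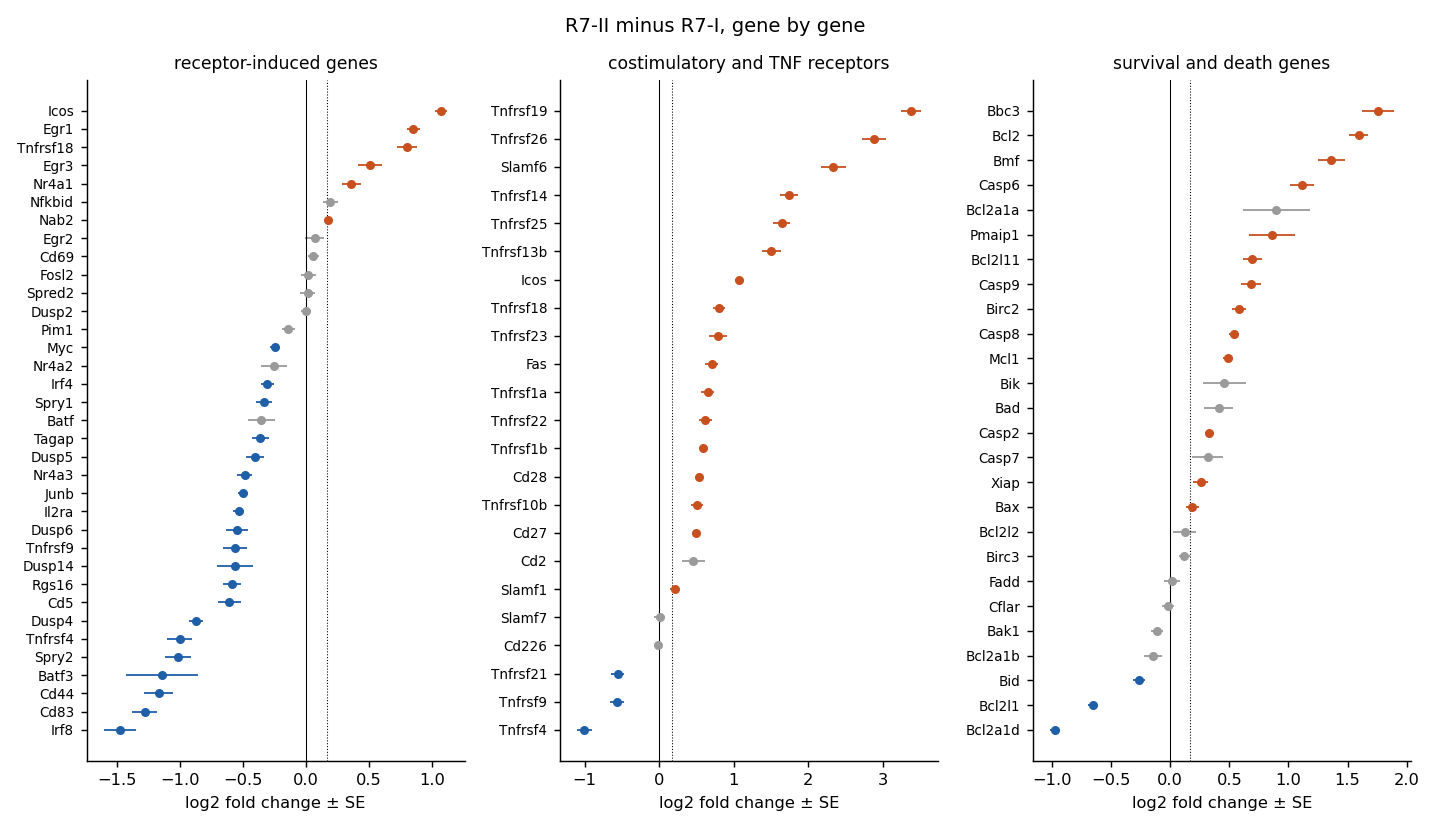
Log2 fold change of R7-II minus R7-I with its standard error for the tested members of 3 lists, receptor-induced genes (left), costimulatory and TNF receptors (middle) and survival and death genes (right); orange is called higher, blue called lower, grey not called, and the dotted line is the all-gene median of 0.17. In each panel members lie on both sides of 0, from Irf8 to Icos, from Tnfrsf4 to Tnfrsf19 and from Bcl2a1d to Bbc3.

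The transcription factor families downstream were split as well. Of 33 NF-kappa-B and AP-1 genes 10 were higher and 11 lower (7 and 14 with median-of-ratios scaling), with a median of 0.02 that turned to -0.15. In TPM 30.3% were higher and 33.3% lower, against 40.6% and 15.5% of all genes tested. Nfkb1, the p105 and p50 subunit, was at 730.2, 739.9 and 719 TPM in R7-I and at 564, 560.3 and 567 TPM in R7-II, and Atf3, a stress-induced AP-1 partner, at 35.5, 30.4 and 34.3 TPM against 16, 13.8 and 13.6 TPM. Fosb was at 1.28, 1.59 and 1.34 TPM against 6.27, 6.42 and 6.76 TPM and Bcl3, a nuclear I-kappa-B protein, at 7.02, 5.77 and 5.66 TPM against 17.9, 14.1 and 18.6 TPM. Of 30 calcium and NFAT genes 15 were higher and 3 lower (10 and 8 with median-of-ratios scaling). These shares, 50% and 10%, lay near the 40.6% and 15.5% of all genes tested, and the median was 0.23 against 0.17. Orai2, a subunit of the store-operated calcium channel, was at 10.4, 11.1 and 11.6 TPM against 46.6, 38.8 and 46.9 TPM, and Itpr3, an IP3 receptor of the endoplasmic reticulum, at 4.26, 4.57 and 3.82 TPM against 18.6, 14.2 and 17.9 TPM. The calcium pump Atp2a2 was lower, at 222, 213 and 226 TPM against 157, 161 and 155 TPM, as was Nfat5 (-0.27).

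RNA of most genes of the receptor complex and its proximal signalling was higher in the low-affinity clone. Of 40 such genes 29 were higher and 3 lower (24 and 8 with median-of-ratios scaling), with a median of 0.44. The CD3 and CD8 chains were among them, with Cd3g at 294, 279.9 and 287 TPM in R7-I and at 511, 501 and 496 TPM in R7-II, Cd8b1 at 326, 310.4 and 323 TPM against 504, 496 and 555 TPM and Cd8a at 349, 339 and 341 TPM against 393, 452 and 444 TPM, a gain of 0.32 ± 0.05. With median-of-ratios scaling Cd8a gained 0.15 and no longer passed. The adaptor Lat was at 526, 519.9 and 524 TPM against 737, 665 and 696 TPM. Sla2, an adaptor that dampens receptor signalling, was at 6.27, 7.11 and 6.98 TPM against 29.5, 23.8 and 24.6 TPM. The 3 lower genes were Cd5, its relative Cd6 (-0.31) and Ubash3b, a phosphatase that acts on ZAP-70, at 9.5, 11.6 and 9.59 TPM against 4.34, 5.59 and 3.09 TPM, while R7-III was at 22.4, 23.8 and 23.9 TPM. Of 16 anergy-linked genes 10 were higher and 3 lower (5 and 5 with median-of-ratios scaling). In TPM these were 62.5% and 18.75%, against 40.6% and 15.5% of all genes tested. With median-of-ratios scaling 26.0% of all genes were higher and 28.5% lower, so a lean of this list to higher genes depended on the scaling. Dgka (chromosome 10 from 128720131 to 128745084), the kinase that removes diacylglycerol and so limits Ras activation, had the largest gain at 69.7, 64.9 and 76.5 TPM against 318, 268 and 301 TPM (2.06 ± 0.07, adjusted p = 1.51e-08 from limma), followed by Ndrg1 at 10.7, 8.24 and 10.4 TPM against 50.2, 32.8 and 40.3 TPM. The 3 lower members included Nrn1, at 98.7, 89.3 and 77 TPM against 48.2, 68.5 and 47.6 TPM, and the ubiquitin ligase Nedd4 (-0.32). The call of Nedd4 was lost without R7-I replicate 2 (-0.33) or 3 (-0.28) and without R7-II replicate 1 (-0.26) or 3 (-0.29).

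Among inhibitory receptors Ctla4 stood apart. Of 13 tested, 2 were higher and 5 lower (2 and 9 with median-of-ratios scaling). Ctla4 (chromosome 1 from 60909025 to 60915832), which competes with CD28 for its ligands, was at 12.1, 10.3 and 13.3 TPM in R7-I but at 61.5, 60.3 and 66.1 TPM in R7-II, while R7-III had 12.9, 12.1 and 15.2 TPM. The other higher gene, Ceacam1, stayed under 1.5 TPM. The lower genes were Cd200, at 161, 152 and 164 TPM against 80.2, 80.5 and 68.4 TPM, Tigit, at 31.4, 29.2 and 30.1 TPM against 18.5, 18.4 and 14.1 TPM, Lair1 (-0.61), Btla (-0.37) and Pdcd1 (-0.38), which encodes PD-1. Lag3 was at 253, 234 and 285 TPM against 209, 253 and 232 TPM and did not pass. The call of Lair1, which rests on low levels, was lost without R7-I replicate 1 (-0.57) or 2 (-0.50) and without R7-II replicate 1 (-0.58) or 2 (-0.57).

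Costimulatory and TNF receptors leaned to R7-II, with 17 of 23 higher and 3 lower (16 and 4 with median-of-ratios scaling) and a median of 0.62. Beside Tnfrsf19, Tnfrsf26 was at 2.58, 3.04 and 3.52 TPM in R7-I and at 35.4, 22.5 and 29.8 TPM in R7-II. Cd27 (0.50), Cd28 (0.54) and Fas (0.71) were higher by smaller steps. The 3 lower members were Tnfrsf9 or 4-1BB, at 502, 519 and 499 TPM against 314, 399 and 322 TPM, Tnfrsf4 or OX40, at 49.1, 60.5 and 51 TPM against 23.3, 27.6 and 27.6 TPM, and Tnfrsf21 (-0.56). Activated T cells induce Tnfrsf9 and Tnfrsf4, as they do Icos and Tnfrsf18, which were higher. R7-III was at 359.9, 433 and 340.0 TPM for Tnfrsf9 and at 72.8, 59.1 and 67.2 TPM for Tnfrsf4.

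Most cytokine and chemokine genes were lower. Of 22 tested 16 were lower, 9 of them by more than 2-fold, 5 did not pass and 1 was higher (17 and 1 with median-of-ratios scaling), with a median of -0.63 against 0.17 for all genes. Ifng was at 153, 160.5 and 133 TPM in R7-I and at 25.2, 36.9 and 47.5 TPM in R7-II (-2.04 ± 0.17). Xcl1, the most abundant member and an attractant of cross-presenting dendritic cells, was at 3681, 3756 and 3439 TPM against 2321, 2092 and 2082 TPM, and stayed abundant in each R7-II library. The macrophage inflammatory protein genes Ccl3 (1518, 1420 and 1366 against 417, 402 and 408 TPM) and Ccl4 (2368, 2299 and 2379 against 1080, 1158 and 1132 TPM) and the growth factor genes Il2 (145, 147 and 167 against 35.8, 58.1 and 52.3 TPM) and Csf2 (1.6, 1.58 and 2.31 against 0.19, 0.50 and 0.23 TPM), named after their values were seen, were lower too. Tnf was lower by a smaller step (-0.50). The single higher gene was Ltb, lymphotoxin beta, a membrane cytokine of resting lymphocytes, at 35.9, 34.4 and 41.6 TPM against 285, 219 and 306 TPM.

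Cytotoxic granule genes changed selectively. Of 19 tested 7 were lower and 4 higher (11 and 4 with median-of-ratios scaling). Below Gzmb and the serpins, the lower members were Gzmc (-1.42), Nkg7 (-1.19), Stx11 (-0.39) and the proteoglycan Srgn, at 739, 667 and 725 TPM against 621, 637 and 591 TPM. The 4 higher members were Unc13d, which primes granules for release, at 18.5, 17.5 and 19.9 TPM against 30.5, 29.5 and 29.6 TPM, Gzmm, at 0.94, 0.67 and 0.88 TPM against 2.4, 1.67 and 2.16 TPM, Serpinb6a (0.55) and Stxbp2 (0.36). Prf1, perforin, did not pass (-0.39 ± 0.13), but passed without R7-I replicate 3 (-0.59).

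Transcription factors of effector and memory cells went in both directions. Of 22 tested 7 were higher and 8 lower (6 and 9 with median-of-ratios scaling). The shares, 31.8% and 36.4%, stood against 40.6% and 15.5% of all genes tested. With Tbx21 and Hopx, lower members were Zbtb32 (-1.07), Bhlhe40 (-0.84), Stat4 (-0.73) and Zeb2 (-0.65). Bcl6, the repressor of follicular helper and memory precursor cells, was at 3.07, 4.06 and 2.88 TPM in R7-I and at 11.1, 8.25 and 9.42 TPM in R7-II, Id3 at 43.8, 49 and 46.7 against 100.1, 102 and 92.6 TPM, and Id2, an inhibitor of E proteins that effector cells use, at 27.6, 25.1 and 24.1 TPM against 56.3, 56.2 and 53.4 TPM. Ikzf1, Ikaros, was at 173, 164 and 174 TPM against 246, 217 and 222 TPM. Id2 was higher where Tbx21 was lower. Eomes (-0.65 ± 0.25) did not pass, but passed without R7-II replicate 3 (-1.01).

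Naive and quiescence genes were the list with the highest median. Of 25 tested 20 were higher, 10 of them by more than 2-fold, and 1 was lower (19 and 3 with median-of-ratios scaling), with a median of 0.87. Tcf7, which encodes TCF-1, was at 174, 168 and 198 TPM in R7-I and at 514, 411 and 518 TPM in R7-II (1.41 ± 0.08). Ccr7, the lymph node homing receptor, was at 756, 822 and 825 TPM against 1236, 1100 and 1181 TPM, high in both clones. Txnip (1.55), Ets1 (1.36), Btg2 (1.12), Lef1 (0.94) and Foxo1 (0.81) were higher. Slfn2, the schlafen gene that keeps T cells quiescent, was the single lower gene, at 569.6, 605 and 575 TPM against 481, 529.5 and 506 TPM and the other 4 did not pass. The call of Slfn2 was lost without R7-I replicate 2 (-0.18) or R7-II replicate 1 (-0.17). Of 20 genes listed as brakes on PI3K and mTOR 14 were higher and 2 lower (12 and 3 with median-of-ratios scaling), with a median of 0.57. Beside Pik3ip1, Ddit4, the stress-induced inhibitor of mTORC1, was at 27.8, 23.4 and 38.5 TPM against 109, 96.7 and 76.6 TPM. The pseudokinase gene Trib2, a member of the list whose place as a brake is not certain, was at 4.21, 3.36 and 3.78 TPM against 39.6, 29.2 and 36.2 TPM. The 2 lower genes were Tbc1d7, a subunit of the TSC complex, at 13.1, 11.5 and 12.6 TPM against 8.7, 9.39 and 8.96 TPM, and Phlpp2 (-0.40). The call of Tbc1d7 was lost without R7-I replicate 1 (-0.38) or 3 (-0.40) or R7-II replicate 1 (-0.39).

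Homing receptors went in both directions. Of 24 tested 13 were higher and 7 lower (12 and 8 with median-of-ratios scaling). In TPM these were 54.2% and 29.2%, against 40.6% and 15.5% of all genes tested. Itgb7 (chromosome 15 from 102215994 to 102233405), the integrin chain that pairs with alpha 4 and alpha E for homing to and retention in the gut, was at 13.3, 14 and 12.5 TPM in R7-I and at 110.1, 88.3 and 108 TPM in R7-II (2.85 ± 0.08). Its partner chains Itga4 (4.38, 3.85 and 3.66 against 16.8, 10.2 and 17.1 TPM) and Itgae (10.7, 8.91 and 13.6 against 55.6, 41 and 61.3 TPM), and the gut chemokine receptor Ccr9 (1.64, 1.47 and 1.53 against 17.4, 10.8 and 19.8 TPM), named after their values were seen, were higher too. Cxcr3, the receptor that brings effector cells to inflamed tissue, was at 7.86, 7.24 and 8.29 TPM against 3.71, 2.48 and 2.58 TPM. Cd44, Itgb1 (-0.56), Itgav (-0.77) and Ccr4 (-0.77) were lower.

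Cytokine receptors and their feedback genes were higher more often than all genes tested. Of 31 such genes 20 were higher and 6 lower (17 and 8 with median-of-ratios scaling). In TPM 64.5% were higher and 19.4% lower, against 40.6% and 15.5% of all genes tested. The chains of the IL-12 receptor, Il12rb1, at 88.8, 87.7 and 89.5 TPM in R7-I and at 32.7, 48.5 and 41.3 TPM in R7-II, and Il12rb2, at 30.6, 32.4 and 28.3 TPM against 7.46, 10.8 and 8.0 TPM, were lower, as were Il15ra (-1.05) and Il2ra. The common gamma chain gene Il2rg was at 592, 598 and 614 TPM against 807, 789.6 and 745 TPM and Ifngr2, the signalling chain of the interferon gamma receptor that type 1 cells turn down, at 6.13, 6.72 and 6.43 TPM against 18.1, 13.7 and 19.1 TPM. Il6st (0.82), Tgfbr2 (0.54) and Ifnar1 (0.72) were higher by less than 2-fold. Among feedback inhibitors, Socs3, which blocks the IL-6 receptor chain gp130, was at 4.53, 3.71 and 3.68 TPM against 28.8, 19.2 and 26 TPM, while Cish, an inhibitor induced through IL-2, was lower (-0.46).

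Most genes of DNA replication were lower. Of 50 S phase genes 44 were lower and 0 higher (47 and 0 with median-of-ratios scaling), 10 of them by more than 2-fold, with a median of -0.57. At an unadjusted p under 0.05, 1 S phase gene, Tyms (0.21, named after its value was seen), leaned higher by limma. Cdc6, which loads the replicative helicase on origins, was at 10.9, 14.2 and 12 TPM in R7-I and at 1.68, 3.06 and 2.69 TPM in R7-II (-1.96 ± 0.14), and Mcm10, which helps start the fork, at 17.2, 24.7 and 20.6 TPM against 2.49, 5.66 and 5.4 TPM. Uhrf1, the protein that guides maintenance DNA methylation behind the fork, was at 107, 120.3 and 105 TPM against 37, 47.2 and 44.5 TPM. Pcna, the sliding clamp and the most abundant member, was at 742, 765 and 791 TPM against 592, 614 and 598 TPM, a small step (-0.35 ± 0.03). For these 4 genes R7-III lay above R7-I, with Cdc6 at 26.8, 26.2 and 29.9 TPM and Mcm10 at 45.3, 43.7 and 49.3 TPM. The mean TPM of R7-III exceeded that of R7-I for 50 of the 50 S phase genes and for 44 of 46 mitosis genes. R7-III, intermediate in affinity by the submitters' order, was thus not intermediate here, and this count rests on the same R7-I libraries. By a membrane-anchored measure the paper found similar affinities for R7-I and R7-III.

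E2F factors switch on replication genes through a short promoter site. Of the 40 S phase genes with a RefSeq promoter (250 bases before to 50 after the start, first listed start per gene, GRCm38.p6, the build of mm10), 27.5% held TTTCCCGC or TTTGGCGC on either strand, against 3.27% of the 9074 promoters of all genes tested and 1.63% of the 27025 genes in the promoter table. Among genes called lower 5.58% held it and among genes called higher 2.69%. The 5 lower S phase genes with a match within 150 bases before the start are shown, with the match in capitals, because no replication gene was called higher. They lie at chr11:98908001-98908150 (plus strand), chr8:75109359-75109508 (plus strand), chrX:93632156-93632305 (minus strand), chr8:95633409-95633558 (plus strand) and chr1:128359706-128359855 (minus strand).
Cdc6: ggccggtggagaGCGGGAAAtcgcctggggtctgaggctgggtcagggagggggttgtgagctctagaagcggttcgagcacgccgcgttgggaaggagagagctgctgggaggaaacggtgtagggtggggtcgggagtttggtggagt
Mcm5: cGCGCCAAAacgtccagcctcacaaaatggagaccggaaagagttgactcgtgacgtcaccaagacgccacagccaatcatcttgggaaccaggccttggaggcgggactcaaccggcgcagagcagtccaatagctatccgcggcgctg
Pola1: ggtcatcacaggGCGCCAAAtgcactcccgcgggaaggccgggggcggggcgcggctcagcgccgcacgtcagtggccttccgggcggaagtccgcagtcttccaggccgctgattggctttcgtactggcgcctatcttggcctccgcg
Gins3: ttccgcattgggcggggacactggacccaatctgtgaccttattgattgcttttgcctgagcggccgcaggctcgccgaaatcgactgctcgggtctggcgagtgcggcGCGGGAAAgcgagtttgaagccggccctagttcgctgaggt
Mcm6: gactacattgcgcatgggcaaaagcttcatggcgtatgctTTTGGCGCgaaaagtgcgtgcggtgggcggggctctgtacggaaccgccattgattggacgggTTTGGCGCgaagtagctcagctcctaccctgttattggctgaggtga
The losses of these 5 genes ranged widely. Beside Cdc6, the helicase subunit genes Mcm5 (339.9, 362 and 332 against 193, 229.9 and 223 TPM, -0.68 ± 0.06) and Mcm6 (272, 282 and 277 against 231, 268 and 228 TPM, -0.19 ± 0.05), the polymerase gene Pola1 (-0.41 ± 0.07) and Gins3 (-0.29 ± 0.07), a subunit of the GINS complex, were lower by less than 2-fold, and Mcm6, with 2 matches, had the smallest loss. The call of Mcm6 was lost without each library but R7-II replicate 2 (-0.21 to -0.15), and that of Gins3 without R7-I replicate 1 (-0.29) or 3 (-0.28). A match of these letters is a description of the promoter and was not tested as a site.

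More mitosis genes were lower than higher. Of 46 tested 29 were lower, 14 did not pass and 3 were higher (35 and 3 with median-of-ratios scaling), with a median of -0.57, and most were at low levels in both clones. Cdk1, the mitotic kinase, was at 9.29, 11 and 10.4 TPM in R7-I and at 1.04, 3.17 and 2.05 TPM in R7-II, Ccna2, cyclin A, at 6.03, 6.42 and 5.98 TPM against 1.36, 1.55 and 1.49 TPM, and Top2a at 26.9, 30.2 and 27.2 TPM against 7.42, 10.7 and 9.37 TPM. The 3 higher genes were Pttg1, securin, at 3.79, 4.64 and 4.04 TPM against 13.7, 35.5 and 17.2 TPM, Cdc25b, a phosphatase that activates cyclin-dependent kinases, at 2.74, 2.82 and 2.77 TPM against 11.3, 6.45 and 9.11 TPM, and Cenpa (0.58). The Pttg1 values spread widely in R7-II, with replicate 2 the highest.

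CCAAT boxes, bound by the factor NF-Y and common in promoters of mitosis genes, were present in 30 of the 40 mitosis promoters, and in 40.0% of all genes tested and 37.9% of the promoter table (CCAAT on either strand). They were not particular to mitosis genes. Over the other lists searched the share ran from 20.8% (autophagy) to 70.8% (chaperones), with 62.5% for S phase genes. Of the mitosis genes called, 21 had such a box within 150 bases of the start, and the 3 with the largest loss are shown with the boxes in capitals, from chr10:69352913-69353062 (minus strand), chr11:99024190-99024339 (minus strand) and chr2:118598061-118598210 (plus strand).
Cdk1: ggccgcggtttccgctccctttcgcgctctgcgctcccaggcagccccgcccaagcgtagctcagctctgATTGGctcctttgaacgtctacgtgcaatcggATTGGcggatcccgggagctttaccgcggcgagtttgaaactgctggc
Top2a: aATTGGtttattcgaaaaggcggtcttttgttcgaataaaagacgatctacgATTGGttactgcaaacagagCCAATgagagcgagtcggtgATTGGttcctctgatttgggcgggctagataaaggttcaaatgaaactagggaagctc
Bub1b: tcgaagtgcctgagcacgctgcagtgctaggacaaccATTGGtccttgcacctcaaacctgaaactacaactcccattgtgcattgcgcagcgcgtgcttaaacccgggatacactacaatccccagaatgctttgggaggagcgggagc
Within the 150 bases shown, Top2a had 4 boxes, Cdk1 had 2 and Bub1b, a spindle checkpoint kinase (-1.45 ± 0.13), had 1. Over its full 300-base promoter Cdk1 had 3. The losses of the 3 genes lay within 1.45 and 1.92 on the log2 scale and did not follow the number of boxes in these windows.

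Regulators of entry into the cycle went in both directions, with a larger share lower than among all genes tested. Of 24 G1 cyclins, E2F factors and CDK inhibitors 9 were higher and 9 lower (9 and 11 with median-of-ratios scaling). Each share was 37.5%, against 40.6% higher and 15.5% lower of all genes tested. The activators E2f1, at 26.8, 29 and 26.3 TPM in R7-I and at 8.8, 14.1 and 12.6 TPM in R7-II, Cdc25a, at 55.5, 57.1 and 59.7 TPM against 27.1, 30.1 and 31.4 TPM, and Cdk4, at 597, 616 and 622 TPM against 478, 521 and 508 TPM, were lower. Rbl2, the p130 pocket protein of resting cells, was at 11.8, 11.8 and 15.9 TPM against 39.2, 37.7 and 34.4 TPM and Ccng2, a cyclin of non-dividing cells, at 3.63, 3.32 and 4.07 TPM against 17.2, 11.4 and 14.8 TPM. The inhibitors Cdkn1a (1.03), Cdkn1b (0.92) and Cdkn2d (0.86) were higher. Histone cluster genes went both ways (9 higher and 9 lower of 51, or 6 and 9 with median-of-ratios scaling), from Hist1h2bj, at 19.2, 24.1 and 23.2 TPM against 3.72, 2.69 and 2.86 TPM, to Hist3h2a, at 3.89, 4.35 and 4.38 TPM against 12.4, 12.3 and 10.7 TPM; reads can be split between such near-identical genes, most of their RNA lacks a poly(A) tail, and the libraries were made from polyA RNA, so their values are uncertain.

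In the Myc network, repressors of the MXD family were higher and Myc was lower. Of 10 genes tested 5 were higher and 1 lower (3 and 2 with median-of-ratios scaling). As shares these were 50% and 10%, near the 40.6% and 15.5% of all genes tested. Mxd4, a repressor that competes with MYC for MAX, was at 4.49, 4.55 and 6.06 TPM in R7-I and at 34.5, 25.5 and 28.3 TPM in R7-II and its relative Mxd1 at 2.77, 2.7 and 2.88 TPM against 9.58, 6.78 and 8.31 TPM. Mxi1 (1.03), Mnt (0.36) and Mlxip (0.25) were the other higher genes. With median-of-ratios scaling Mnt (0.19) and Mlxip (0.08) did not pass. The call of Mnt was lost without R7-I replicate 2 (0.36) or 3 (0.34) and without R7-II replicate 1 (0.28) or 3 (0.34), and that of Mlxip without R7-I replicate 1 (0.25) or 3 (0.25) and without R7-II replicate 1 (0.24) or 3 (0.20).

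Genes of ribosome production, the best known Myc targets, were mostly lower by small steps. Of 49 ribosome biogenesis genes 35 were lower, 12 did not pass and 2 were higher (47 and 0 with median-of-ratios scaling), with a median of -0.20 and none lower by more than 2-fold. The nucleolar chaperone Npm1 was at 6396, 6418 and 6432 TPM in R7-I and at 4956, 5054 and 5030 TPM in R7-II (-0.36 ± 0.02) and Rrp9, a component of the U3 small nucleolar particle, at 322, 333 and 328 TPM against 219, 216 and 224 TPM (-0.58 ± 0.03). The 2 higher genes were Nop10 (0.22, 0.04 with median-of-ratios scaling) and Taf1d (0.11, -0.06 with median-of-ratios scaling), whose call was lost without R7-I replicate 2 (0.10) or R7-II replicate 3 (0.10). The letters CCGGAAGT, a binding site of ETS factors, were found on either strand in 26.7% of the 45 promoters of this list, against 9.39% of all genes tested and 4.00% of the promoter table, and in 16.2% of 68 promoters of mitochondrial ribosomal protein genes. Over all other lists searched the share ran from 0% (naive and quiescence genes) to 17.5% (S phase genes). The 3 with the largest loss and a match near the start are shown with the match in capitals, from chr11:51619623-51619772 (plus strand), chr7:45830790-45830939 (minus strand) and chr8:107056727-107056876 (plus strand).
Nhp2: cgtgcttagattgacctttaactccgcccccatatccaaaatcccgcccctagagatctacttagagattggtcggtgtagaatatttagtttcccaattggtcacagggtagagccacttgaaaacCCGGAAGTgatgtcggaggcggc
Grwd1: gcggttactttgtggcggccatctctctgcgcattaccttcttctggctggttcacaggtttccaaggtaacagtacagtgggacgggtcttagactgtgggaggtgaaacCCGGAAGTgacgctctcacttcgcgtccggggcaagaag
Nip7: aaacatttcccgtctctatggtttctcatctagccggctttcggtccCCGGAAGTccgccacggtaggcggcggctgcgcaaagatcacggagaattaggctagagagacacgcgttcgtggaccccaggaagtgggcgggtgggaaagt
Nhp2, a protein of the particles that guide pseudouridylation, was at 514, 497 and 499 TPM against 347, 383 and 381 TPM, Grwd1 at 162, 170.0 and 165 TPM against 134, 136 and 134 TPM and Nip7 at 122, 123 and 122 TPM against 102, 102 and 99.8 TPM. The steps were under 1.5-fold. The 6 libraries of each fell into separate groups, as did those of 71.2% of all genes tested.

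Other genes of translation showed small steps. Of 84 cytosolic ribosomal protein genes 18 were lower and 6 higher in TPM, with a median of -0.05. With median-of-ratios scaling 66 were lower and 1 higher, whereas quantile normalization gave a median of 0.02, so no direction is stated for this family. Rps2 was at 7361, 7300 and 7369 TPM in R7-I and at 6846, 6881 and 6793 TPM in R7-II. The largest step was that of Rpl22l1, a paralog of a ribosomal protein, at 495, 454 and 415 TPM against 248, 232 and 291 TPM. Of 77 mitochondrial ribosomal protein genes 45 were lower and 1 higher (72 and 0 with median-of-ratios scaling), with Mrpl12 at 437, 456 and 421 TPM against 304, 312 and 320.1 TPM and Mrpl4 as the exception (0.37, 0.20 and not passing with median-of-ratios scaling). Of 23 aminoacyl-tRNA synthetase genes 17 were lower and 1 higher (20 and 0 with median-of-ratios scaling), with Gars at 484, 451 and 476 TPM against 381, 365 and 378 TPM and Qars as the exception (0.17, -0.0026 with median-of-ratios scaling). Of 53 initiation genes 24 were lower and 7 higher (38 and 2 with median-of-ratios scaling). The share lower was 45.3%, against 34.8% of all genes above 76.5 TPM. Medians with median-of-ratios scaling were -0.29 and -0.22. Eif5a was at 3690, 3595 and 3648 TPM against 2750, 2896 and 2832 TPM, and the cap-binding variant Eif4e3, at 4.15, 3.37 and 4.13 TPM against 8.83, 11.4 and 11.8 TPM, and the stress kinase gene Eif2ak3 or PERK, at 8.69, 7.13 and 7.47 TPM against 15.8, 12.8 and 14.5 TPM, were higher.

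Genes of biosynthetic metabolism were lower more often than higher, and some paralogs went in opposite directions. All genes above 76.5 TPM also were lower (34.8%) more often than higher (25.5%). The shares lower were 51.9% for glycolysis and pentose phosphate, 69.2% for nucleotide synthesis and 50% for amino acid uptake and one-carbon genes. Of 27 glycolysis and pentose phosphate genes 14 were lower and 8 higher (19 and 3 with median-of-ratios scaling). Hk2, the inducible hexokinase, was at 71.6, 74.1 and 66.9 TPM in R7-I and at 38.5, 37.8 and 41.3 TPM in R7-II, and Ldha, the lactate dehydrogenase chain of glycolytic cells, at 1790, 1813 and 1797 TPM against 1166, 1307 and 1250 TPM. Ldhb, the chain that favours pyruvate, was at 17.2, 19.7 and 18.4 TPM against 36.7, 39.4 and 29.2 TPM, so the 2 chains moved in opposite directions. Gapdh was at 4419, 4782 and 4617 TPM against 3805, 4127 and 3824 TPM and Slc16a3, a lactate exporter, at 1.09, 1.69 and 1.36 TPM against 3.2, 3.12 and 2.1 TPM. Of 26 nucleotide synthesis genes 18 were lower and 2 higher (23 and 1 with median-of-ratios scaling). Here too paralogs parted, with Ctps at 146, 147 and 145 TPM against 102, 103 and 109 TPM and its paralog Ctps2 at 4.01, 3.72 and 4.45 TPM against 18.7, 15.5 and 16.1 TPM, and Prps2 was the other higher gene (0.24), which did not pass with median-of-ratios scaling (0.07). Of 26 amino acid uptake and one-carbon genes 13 were lower and 2 higher (17 and 2 with median-of-ratios scaling). Psat1, of serine synthesis, was at 462, 413 and 426 TPM against 232, 235 and 255 TPM and Mthfd2, the mitochondrial folate enzyme, at 329.7, 304 and 300.1 TPM against 193, 182 and 200.3 TPM. The 2 higher genes were stress genes, Ddit4 and Ddit3 or CHOP, at 23.6, 24.1 and 26.4 TPM against 53.6, 36.4 and 43.8 TPM.

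Mitochondrial genes showed smaller steps. Of 79 oxidative phosphorylation genes 29 were lower and 7 higher (60 and 5 with median-of-ratios scaling), with a median of -0.10. With quantile normalization 17 were lower and 7 higher, while over all 11330 genes that scaling gave 3018 lower and 2558 higher. Atp5b was at 2041, 2034 and 2108 TPM in R7-I and at 1900, 1866 and 1797 TPM in R7-II (-0.15 ± 0.03). Cox7a2l, which joins respiratory complexes into supercomplexes, was at 164, 165 and 169.6 TPM against 258, 255 and 256 TPM. Of 18 citrate cycle genes 6 were lower and 2 higher (12 and 0 with median-of-ratios scaling). The shares of lower genes were 36.7% for oxidative phosphorylation and 33.3% for the citrate cycle. Both lay near the 34.8% of all genes above 76.5 TPM. Medians with median-of-ratios scaling were -0.27 and -0.20, against -0.22 for those genes. Idh3a was at 125, 126 and 127 TPM against 102, 103 and 99.2 TPM. The higher genes of the citrate cycle were Suclg1 (0.26) and Idh3g (0.20), neither of which passed with median-of-ratios scaling (0.09 and 0.02). Of 33 sterol and fatty acid synthesis genes 14 were lower and 6 higher (19 and 6 with median-of-ratios scaling). The share lower was 42.4%, against 34.8% of all genes above 76.5 TPM. Medians with median-of-ratios scaling were -0.29 and -0.22. Idi1, an enzyme of the mevalonate pathway, was at 262, 289 and 269.8 TPM against 171, 171 and 166 TPM and Hsd17b7 at 19.1, 19.7 and 19.8 TPM against 12.1, 11.2 and 11.6 TPM, while Abcg1, the cholesterol exporter, was at 0.40, 0.47 and 0.43 TPM against 4.1, 3.17 and 3.95 TPM.

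Most chaperone genes were lower, and more lysosomal genes were higher than lower. Of 31 chaperone genes 28 were lower and 1 higher (30 and 0 with median-of-ratios scaling). Hspa8, the constitutive Hsp70, was at 6822, 6744 and 6525 TPM in R7-I and at 4718, 4643 and 4955 TPM in R7-II and Hspe1, the mitochondrial co-chaperonin, at 1519, 1548 and 1524 TPM against 1014, 1081 and 1079 TPM, and the exception was Dnajb1 (0.17, -0.0019 with median-of-ratios scaling), whose call was lost without R7-I replicate 2 (0.17) or 3 (0.15) and without R7-II replicate 1 (0.14) or 3 (0.15). Of 42 proteasome genes 20 were lower and 1, the immunoproteasome subunit gene Psmb10, was higher (34 and 1 with median-of-ratios scaling). The share lower was 47.6%, against 34.8% of all genes above 76.5 TPM. Medians with median-of-ratios scaling were -0.29 and -0.22. Quantile normalization left 12 of the proteasome genes lower and 2 higher, against 3018 lower and 2558 higher of all 11330 genes. In contrast, of 43 lysosome and vacuolar ATPase genes 26 were higher and 1, Ctsz (-0.27), was lower (19 and 8 with median-of-ratios scaling). In TPM these were 60.5% and 2.33%, against 40.6% and 15.5% of all genes tested. Laptm5, which sends the T cell receptor zeta chain to lysosomes, was at 346, 365 and 379 TPM against 689, 658 and 599.8 TPM and Atp6v0e2, a subunit of the proton pump, at 0.05, 0.05 and 0.06 TPM against 4.0, 5.29 and 4.21 TPM. Myeloid cells are rich in lysosomal RNA, and the myeloid markers other than Cst3 stayed at or under 56.7 TPM, the value of Lyz2 in R7-II replicate 3. Their part in the lysosomal gain was not tested.

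No autophagy gene was lower. Of 30 tested 23 were higher and 0 lower (17 and 0 with median-of-ratios scaling), with a median of 0.51. At an unadjusted p under 0.05, 0 leaned lower by limma. Gabarap, an ATG8 protein of the autophagosome, was at 124, 127 and 128 TPM in R7-I and at 197, 179 and 179 TPM in R7-II, Map1lc3a at 1.92, 1.29 and 1.74 TPM against 7.18, 3.74 and 6.12 TPM, and Atg9a, the lipid scramblase that seeds the membrane, at 4.26, 4.45 and 4.04 TPM against 11.7, 10.5 and 11 TPM. The R7-II libraries were even for Atg9a and Gabarap and uneven for Map1lc3a, where replicate 2 was the lowest.

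Most factors that repress or degrade messenger RNA were higher. Of 26 tested 22 were higher and 0 lower (15 and 2 with median-of-ratios scaling), with a median of 0.45. At an unadjusted p under 0.05, 0 leaned lower by limma. Pdcd4, an inhibitor of the helicase eIF4A, was at 37.5, 36 and 39.3 TPM in R7-I and at 93.6, 85 and 88.9 TPM in R7-II, Zc3h12d, a relative of the RNase Regnase-1, at 29.9, 25.2 and 30.2 TPM against 67.8, 68.8 and 65 TPM, and Zfp36l1, which binds AU-rich elements, at 164, 161 and 174 TPM against 229, 239 and 223 TPM. Numbered zinc finger protein genes, most of them repressors of unknown targets, were higher in 161 of 277 and lower in 7 (107 and 19 with median-of-ratios scaling), with a median of 0.35. In TPM 58.1% were higher, against 40.6% of all genes tested. With quantile normalization 55 were higher and 28 lower, with a median of 0.06, against 2558 higher and 3018 lower of all 11330 genes. The excess of higher genes in this list thus depended on the scaling. Zfp260 was at 4.9, 4.1 and 4.03 TPM against 20.2, 16.5 and 21.1 TPM. The exceptions included Zfp367, an E2F-linked factor with a match to the E2F-type letters in its promoter, at 17.4, 17 and 16.4 TPM against 8.46, 8.7 and 8.07 TPM.

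Of 8 Gimap genes, GTPases needed for survival of naive T cells, 7 were higher and 0 lower (5 and 1 with median-of-ratios scaling), and by limma 0 leaned lower at an unadjusted p under 0.05. Gimap3 was at 208, 189.5 and 194 TPM in R7-I and at 345, 315 and 354 TPM in R7-II and Gimap7 at 14.2, 14.6 and 12.3 TPM against 42, 42.5 and 55.1 TPM. Chromatin genes went in both directions. Of 18 DNA methylation and Polycomb genes 7 were higher and 5 lower (4 and 11 with median-of-ratios scaling). The shares, 38.9% and 27.8%, stood against 40.6% and 15.5% of all genes tested. The lower ones were Uhrf1, Phf19, at 3.13, 2.77 and 2.8 TPM against 1.19, 1.61 and 1.44 TPM, and the core subunit genes Ezh2 (-0.24), Eed (-0.21) and Suz12 (-0.13), whose call was lost without each R7-I library (-0.13 to -0.12) and without R7-II replicate 2 (-0.12) or 3 (-0.13). Ezh1, the methyltransferase that replaces EZH2 in resting cells, was at 16.8, 16.6 and 16.8 TPM against 35.5, 30.3 and 32.1 TPM.

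Survival genes of the Bcl-2 family went in both directions. Of 27 survival and death genes 13 were higher and 4 lower (11 and 7 with median-of-ratios scaling). As shares these were 48.1% and 14.8%, near the 40.6% and 15.5% of all genes tested. Bcl2, the survival protein of resting T cells, was at 11.6, 11.3 and 11.8 TPM in R7-I and at 41, 32.6 and 37.9 TPM in R7-II (1.59 ± 0.08, adjusted p = 9.46e-08 from limma). Bcl2l1 or Bcl-xL, a survival protein induced by activation, was at 296, 319 and 307 TPM against 189.6, 199 and 195 TPM and Bcl2a1d at 164, 169 and 155 TPM against 79.2, 82.9 and 85 TPM; Bcl2a1 copies are nearly identical, and reads could be split between them. Bid (-0.27) was lower as well. Among killers, Bbc3 or PUMA was at 10.9, 11.3 and 15.2 TPM against 51.6, 45.1 and 36.8 TPM, and Bmf (1.36) and Bcl2l11 or BIM (0.69) were higher. Survival genes of the family thus went in both directions, and the BH3-only killers named were higher, except Bid.

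Interferon-stimulated genes were uneven among the R7-II libraries. Of 40 tested 14 were higher and 3 lower (10 and 4 with median-of-ratios scaling). As shares these were 35% and 7.5%, against 40.6% and 15.5% of all genes tested. Igtp, a GTPase induced by interferon gamma, was at 148, 147 and 154 TPM in R7-I and at 216, 259.8 and 256 TPM in R7-II. Irf7, the master factor of type I interferon, was at 7.15, 8.85 and 7.04 TPM against 12.3, 22.9 and 40.1 TPM and Ifit3 at 1.53, 1.81 and 1.49 TPM against 2.9, 15.2 and 26.6 TPM, so the R7-II libraries differed severalfold among themselves. The call of Ifit3 was lost without each R7-I library (2.17 to 2.26) and without R7-II replicate 2 (1.99). The 3 lower genes were Iigp1, at 17.5, 15.2 and 13.4 TPM against 3.18, 5.82 and 5.28 TPM, Bst2, at 192, 210.1 and 176 TPM against 81.8, 141 and 152 TPM, and Gbp5 (-0.30). The call of Bst2 was lost without each R7-I library (-0.73 to -0.61). Of 20 MHC class I presentation genes 9 were higher and 1 lower (6 and 3 with median-of-ratios scaling). The share of higher genes, 45%, lay near the 40.6% of all genes tested, and the median was 0.20 against 0.17. H2-K1 was at 746, 766 and 761 TPM against 1389, 1072 and 1423 TPM, B2m at 1978, 1920 and 1890 TPM against 2399, 2487 and 2509 TPM and Tapbp, tapasin, at 116, 129.6 and 121 TPM against 198, 223 and 234 TPM. The single lower gene was Psme2, a subunit of the proteasome activator PA28, at 771, 779 and 794 TPM against 492, 652 and 604 TPM.

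Enzymes that build surface glycans went in both directions, 4 higher and 5 lower of 18 (3 and 7 with median-of-ratios scaling). In TPM these were 22.2% and 27.8%, against 40.6% and 15.5% of all genes tested. St6gal1, which adds alpha 2,6-linked sialic acid, was at 8.91, 8.26 and 8.71 TPM in R7-I and at 26.6, 20.9 and 26.7 TPM in R7-II, and B4galt1 (0.65), St8sia4 (0.59) and St8sia1 (0.42, 0.25 and not passing with median-of-ratios scaling) were the other higher genes. Chst11, a chondroitin sulfotransferase, was at 7.06, 8.31 and 8.45 TPM against 2.01, 2.33 and 1.92 TPM, and St3gal5 (-0.81), Gcnt4 (-0.55), St6galnac4 (-0.37) and B3gnt2 (-0.18) were lower. The call of Gcnt4 was lost without R7-I replicate 1 (-0.42) and without each R7-II library (-0.56 to -0.54).

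The R7-II libraries differed among themselves in a repeated order. Of the 677 genes higher by more than 2-fold, R7-II replicate 2 was the lowest of the 3 R7-II libraries for 497 (73.4%), and of the 144 lower by more than 2-fold it was the highest for 84 (58.3%), so it lay nearest to R7-I more often than the other two. It also held the smallest summed B cell, MHC class II and myeloid markers of the 3. Without it 797 genes were higher and 154 lower by more than 2-fold.

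A number of genes were on in some R7-II libraries and off in others. A rule set after the data were seen took genes above 5 TPM in 1 library of a clone whose highest and lowest library differed at least 5-fold (after 0.5 TPM was added), while each other clone varied under 2-fold. Genes with symbols that begin with Snor, Mir or Scarna were left out. The rule found 12 genes in R7-II, 0 in R7-I and 2 in R7-III. Gbp2b was at 39.1, 0.04 and 0.04 TPM in R7-II and at 64.5, 64.3 and 71.3 TPM in R7-I, so it was near 0 in replicates 2 and 3 alone, and its call was lost without each R7-I library (-4.29 to -4.22) and without R7-II replicate 2 (-3.39) or 3 (-3.39). Rftn1, a lipid raft protein, was at 57, 5.09 and 57 TPM against 53.7, 51.2 and 55.8 TPM, low in replicate 2 alone, and Zhx2 was at 24.3, 22.9 and 2.05 TPM against 29.1, 31.4 and 35.2 TPM, low in replicate 3 alone. Ctse, cathepsin E, was at 4.91, 4.47 and 38.4 TPM against 28.5, 27.7 and 29.6 TPM and A730098P11Rik at 0.24, 0.30 and 5.41 TPM against 10.9, 10.7 and 11.1 TPM, both highest in replicate 3. Other genes were above 5 TPM in R7-II replicates 1 and 2 and near 0 in R7-I. Rab6b, a Golgi GTPase, was at 15.1, 10.7 and 0.15 TPM against 0, 0.12 and 0.05 TPM, Baiap2l1 at 7.07, 5.49 and 0.07 TPM against 0.08, 0 and 0.17 TPM, 2610035D17Rik at 5.75, 15.4 and 0.25 TPM against 0.05, 0.21 and 0.06 TPM and 5830444B04Rik at 5.41, 14.7 and 0.04 TPM against 0.08, 0.11 and 0.09 TPM, each at or under 0.25 TPM in replicate 3. The remaining genes were Ifit3, Usp18, an interferon-induced protease at 1.74, 4.61 and 12.1 TPM, and Ccl22, at 2.25, 0.39 and 6.24 TPM. Of the 12 genes 3 passed with all libraries (Gbp2b, A730098P11Rik and Ifit3). Without R7-II replicate 3, 2610035D17Rik (3.25), 5830444B04Rik (3.20), Baiap2l1 (2.74), Rab6b (3.70), Ctse (-2.38) and Zhx2 (-0.42) passed as well, and without R7-II replicate 2 Ccl22 passed (1.79) and Rftn1 turned to 0.088.

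**Figure D5:**
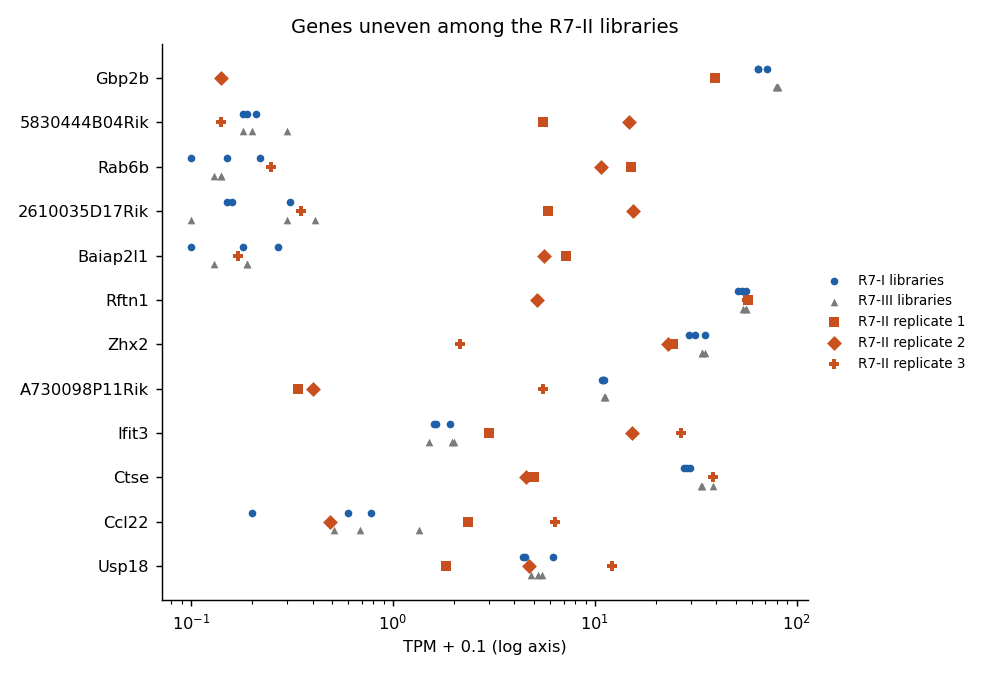
TPM + 0.1 on a log axis for the 12 genes that varied at least 5-fold among the R7-II libraries and under 2-fold in each other clone; orange symbols are R7-II replicates 1 (square), 2 (diamond) and 3 (plus, hidden under another symbol for Gbp2b and Rftn1), blue circles R7-I and grey triangles R7-III. Gbp2b, Rftn1, Zhx2, Ctse and A730098P11Rik reach the R7-I level, or part of it, in some R7-II libraries, and Rab6b, Baiap2l1 and the genes 2610035D17Rik and 5830444B04Rik are near 0 in R7-I and in R7-II replicate 3.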

How the data were processed

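RNA of sorted, peptide-activated CD8 T cells was measured in 9 libraries, 3 per clone, made from polyA RNA. Per the labels and the study's methods the authors estimated gene levels with RSEM 1.2.11 on mm10 RefSeq genes, and the deposited values are TPM per gene symbol, whose sum is fixed per library, so that read depth is lost. The authors tested counts with DESeq2 1.8.1; counts were not used here, so limma replaced that test. Each value column carries the name of 1 sample.

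From the TPM, log2(TPM + 1) was fitted for 11330 genes with limma 3.58.1 in R 4.3.3 (lmFit, eBayes with trend, all 9 libraries), checked on simulated data, adjusted by Benjamini-Hochberg and called at 0.01. The genes named were the 12 largest changes per direction with a mean of 5 TPM or more and no overlap, the 2 largest per direction and the most abundant gene of each list, and a short list tied to signal strength, and further list members were named after their values were seen. Members, lists and tests were chosen with earlier results of these data known. Alternatives were other pseudocounts, filters, scalings and thresholds, no trend, a replicate block, only the 6 libraries, and each library left out. Lists were described by counts and medians, with no set test. RefSeq sequences and positions are of GRCm38.p6, with 99.6% of genes matched. Promoters were searched for 9 motifs, of which the E2F-type, CCAAT and ETS-type matches are reported. A few list members are counted but not reported here by name.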

Additional observations from a re-analysis of the deposited data

How the results depend on the processing

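The values keep no read depth, so how counting error limits low genes cannot be stated, and p-values measure only the spread between 3 libraries of 1 line per clone. Of the counts of called genes, those in each direction depended on scaling and those past 2-fold on the pseudocount. Median-of-ratios scaling gave 2949 genes higher and 3230 lower, and quantile normalization 2558 and 3018, with 394 higher and 293 lower by more than 2-fold. A pseudocount of 0.1 gave 1060 higher and 256 lower by more than 2-fold, and a pseudocount of 5 gave 280 and 60. With 1 library left out, 5416 to 6353 genes were called, 3925 to 4656 higher and 1491 to 1697 lower, with 632 to 797 higher and 118 to 155 lower by more than 2-fold. These counts moved by less than 1.5 times with an adjusted p of 0.05, with no filter or a stricter one, with no trend and with the 6 libraries alone. Deviations of same-numbered libraries from their clone means correlated at 0.051, 0.0253 and -0.0124 between the 2 clones, and those of other pairs at -0.0681 to 0.0385. With 3 libraries per clone these values cannot settle whether libraries of the same number were prepared together. With the replicate block 6015 genes were called, 4356 higher and 1659 lower, with 677 and 147 past 2-fold. Of the 258 genes named, 205 kept direction and call under every setting. Directions turned with median-of-ratios scaling for Cd69 (-0.12), Dnajb1 (-0.0019), Qars (-0.0026) and Taf1d (-0.061), and with quantile normalization for Tyms (-0.045). With 1 library left out, Rftn1 ranged from -1.54 to 0.088 and Usp18 from -0.59 to 0.54, and Usp18 was 0.063 with a pseudocount of 5; neither passed with all libraries. Among list medians, sign changes were seen for NF-kappa-B and AP-1 genes, for G1 cyclins, E2F factors and CDK inhibitors, and for lists with medians near 0. The causes were not tested.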
